A study of Drosophila melanogaster with 8 samples.

Results

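Cytochrome P450 and glutathione transferase genes were followed on 2-colour cDNA arrays on which both RNA samples came from flies treated alike. The members were all clones whose gene is *Cyp4ac1*, *Cyp6u1*, *Cyp4g15*, *GstE2*, *GstE13* or *GstZ2* by the platform's symbol or by the current name of the same Entrez gene. Each gene had 1 clone, so the members are 6 of the 8448 clones on the array, of which 2833 carried a single gene symbol. The array names few of these families: 4 of the 83 *Cyp* genes and 3 of the 35 *Gst* genes of the RefSeq gene table (assembly GCF_000001215.4) had a clone with a single symbol.

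All 8 RNA pools had the same make-up, each from about 240 females of the *Drosophila melanogaster* strain Oregon-R, 4 to 10 days old as adults, on a cycle of 16 h of light to 8 h of darkness at 60% humidity. Every pool was sprayed with 2 mL of 99% ethanol in a Potter's tower (an apparatus that deposits an even spray) and sampled at 6 h, so the arrays hold no treatment contrast. The pools were hybridised in 4 pairs (1 with 2, 3 with 4, 5 with 6, 7 with 8), and each pair was run on 2 arrays. Under normal label Cy3 marked the odd pool and Cy5 the even one; under reversed label the dyes were swapped, which gives 4 arrays of each kind. RNA was from whole flies, so a change in the number of cells of a type and a change in RNA per cell cannot be told apart. A ratio of 2 colours carries no level, and neither the tissue make-up nor the abundance of any transcript could be checked.

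Cytochrome P450s are haem enzymes that insert an oxygen atom into lipids, hormones and foreign compounds; most insect P450s sit in the endoplasmic reticulum and take electrons from a reductase. The CYP4 family, to which *Cyp4ac1* and *Cyp4g15* belong, is known for fatty acid oxidation, and the insect CYP4G enzymes for the last step of hydrocarbon synthesis. The CYP6 family, to which *Cyp6u1* belongs, is insect-specific and holds several enzymes that break down insecticides and plant toxins. Glutathione transferases join glutathione to reactive compounds or reduce peroxides with it: *GstE2* and *GstE13* are of the insect epsilon class, and *GstZ2* is of the zeta class, known for maleylacetoacetate isomerase activity in tyrosine breakdown. Genes of both families are known to respond to many chemicals; here their ratios were read between pools treated alike.

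In the gene order of the RefSeq table, *Cyp4ac1* lies beside *Cyp4ac2* and *Cyp4ac3*, *GstE2* lies among *GstE10*, *GstE1*, *GstE3* and *GstE4*, and *GstZ2* lies next to *GstZ1*. *Cyp6u1*, *Cyp4g15* and *GstE13* had no gene of their own family among the nearest 2 protein-coding genes on each side. Transcripts of near relatives can hybridise to the same spot, so the *Cyp4ac1*, *GstE2* and *GstZ2* clones are uncertain in that respect; this was not tested here.

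The values were the authors' log ratios, taken as base 2 from their size, with each array's median subtracted and the 2 spots of a clone averaged. The labels do not say which channel is the numerator. Dye A therefore stands for whichever dye the numerator carried under normal label, and dye B for the other. Arrays of opposite label from different pairs correlated at a median of -0.16 over all clones (9 of 12 correlations below 0), so reversed-label values were turned in sign to bring all arrays to 1 dye orientation. The normal-label array of pair 3 was the most scattered, with 7.63% of all clones past 2-fold against 0.604% to 1.88% on the other 7. The reversed-label array of pair 3 correlated with the other reversed-label arrays at only -0.14 to 0.032; the dye, even-odd and pair 3 values of the members are also given without it.

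None of the 6 clones went past 2-fold on any array. Their 48 array values ranged in size from 0.0067 to 0.81 log2 units, the largest being a 1.76-fold difference, and the median size was 0.21 against 0.20 over all clones. Of all array values of all clones, 2.02% were past 2-fold.

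*Cyp6u1* had the largest ratios of the 6. With signs as deposited, its normal-label arrays of pairs 1 to 4 read 0.41, 0.27, 0.65 and 0.39, and its reversed-label arrays -0.34, -0.23, 0.19 and -0.81. All 4 normal-label arrays lay above 0 and above every reversed-label array, so the label groups did not overlap. That was so for 12.8% of all clones, and for 1 of the 6 members. The reversed-label array of pair 3 was the only reversed-label array of *Cyp6u1* above 0.

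*Cyp4g15*, the P450 of the CYP4G subfamily, read 0.073, 0.33, 0.63 and 0.028 on the normal-label arrays of pairs 1 to 4 and -0.16, -0.25, -0.044 and 0.046 on the reversed-label arrays. The normal-label arrays were again all above 0, but that of pair 4 lay below the reversed-label array of the same pair, so the groups overlapped. *Cyp4ac1* read 0.16, -0.19, 0.53 and -0.032 under normal label and -0.21, -0.23, -0.17 and 0.30 under reversed label. Its highest value came from the normal-label array of pair 3, the most scattered array, and its groups overlapped.

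Among the glutathione transferases, as for *Cyp4ac1*, no clone had all of its normal-label arrays above 0. *GstE2* read 0.31, 0.18, 0.13 and -0.19 on the normal-label arrays of pairs 1 to 4 and 0.23, -0.15, 0.0067 and 0.30 on the reversed-label arrays, with 3 of 4 arrays above 0 in each group. *GstE13* read -0.20, 0.41, -0.31 and -0.15 and then -0.14, -0.12, -0.21 and 0.37. The single array above 0 in each of its groups came from another pair: pair 2 under normal label and pair 4 under reversed label. *GstZ2*, the zeta-class gene, read -0.14, -0.19, -0.29 and -0.0091 under normal label and -0.017, 0.019, -0.24 and 0.42 under reversed label. All of its normal-label arrays were below 0, and the groups of all 3 transferases overlapped.

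**Figure D1:**
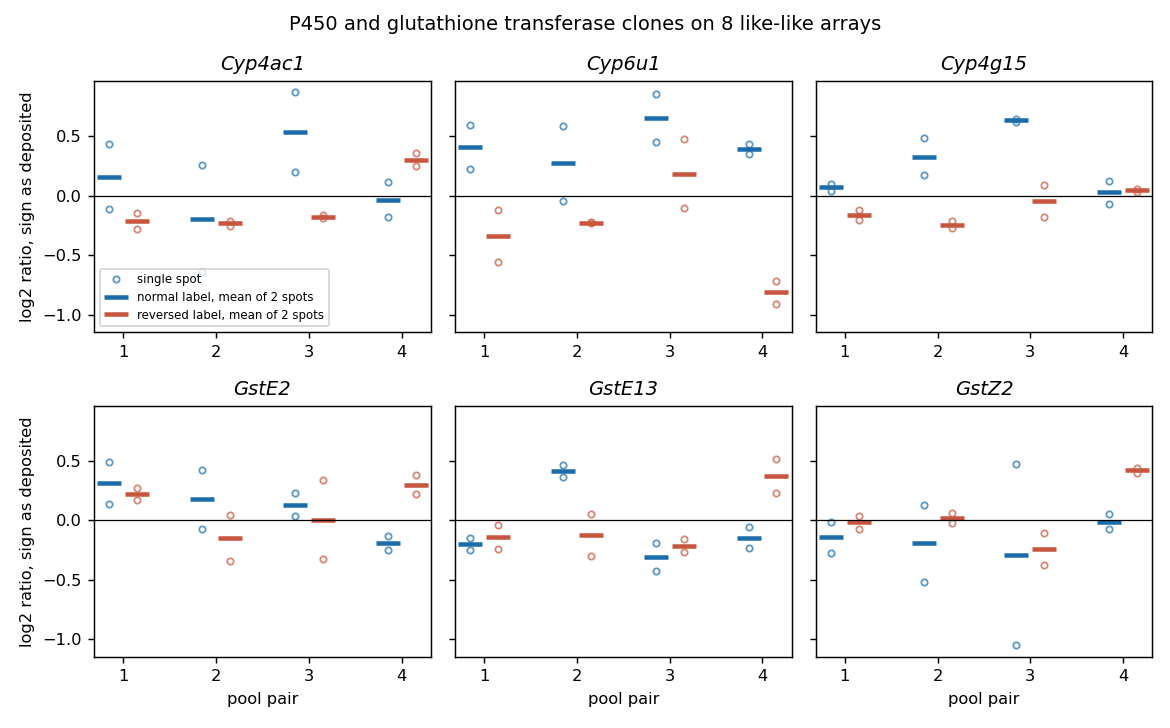
Log2 ratio of each clone (vertical axis, sign as deposited) by pool pair (horizontal axis), with bars for the mean of 2 spots and open circles for single spots; blue is normal label and red is reversed label. *Cyp6u1* is the gene whose 4 blue bars all lie above its 4 red bars, and no bar reaches 1 or -1.

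Among the reversed-label arrays, that of pair 4 held the highest value of 5 of the 6 clones: 0.30 for *Cyp4ac1*, 0.046 for *Cyp4g15*, 0.30 for *GstE2*, 0.37 for *GstE13* and 0.42 for *GstZ2*. *Cyp6u1* instead had its lowest value on it, -0.81, further from 0 than 97.7% of all clones on that array. The median size of the 6 values there was 0.34, against 0.20 for all clones. On the normal-label array of the same pair the 6 had a median size of 0.089, against 0.17 for all clones. The 2 arrays carry the same RNA pools. How many of all clones had their highest reversed-label value on the array of pair 4 is not given, so the count of 5 of 6 has no background.

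How far a value can be trusted depends on its 2 spots, which hold the same clone. Spots of the 6 clones had the same sign in 32 of 48 array values (66.7%), against 68.3% over all clones and arrays. *Cyp4g15* had the smallest mean gap between spots, 0.13, with spots of the same sign on 6 of 8 arrays. Its values of 0.63 and 0.33 on the normal-label arrays of pairs 3 and 2 came from spots at 0.65 and 0.62, and at 0.49 and 0.17.

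*GstZ2* had the largest mean gap and the fewest arrays with spots of one sign. Its spots had opposite signs on 5 of 8 arrays, and the mean gap was 0.38. On the normal-label array of pair 3 they read -1.05 and 0.47, so the mean of -0.29 describes neither. That reading of -1.05 was the only one past 2-fold among all spots of the 6 clones. The *Cyp6u1* spots differed by 0.34 on average, and on the reversed-label array of pair 3 they read -0.11 and 0.48, which makes the sign of that value uncertain. On the reversed-label array of pair 4 they read -0.91 and -0.72, so both spots held that low value.

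Over the 8 arrays, the correlation of the 2 spots was 0.84 for *Cyp4g15*, 0.76 for *GstE13* and 0.70 for *Cyp6u1*, but 0.18 for *Cyp4ac1*, -0.0030 for *GstE2* and -0.29 for *GstZ2*. The median over all clones was 0.56. These coefficients describe 8 arrays that share a dye effect and pools.

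**Figure D2:**
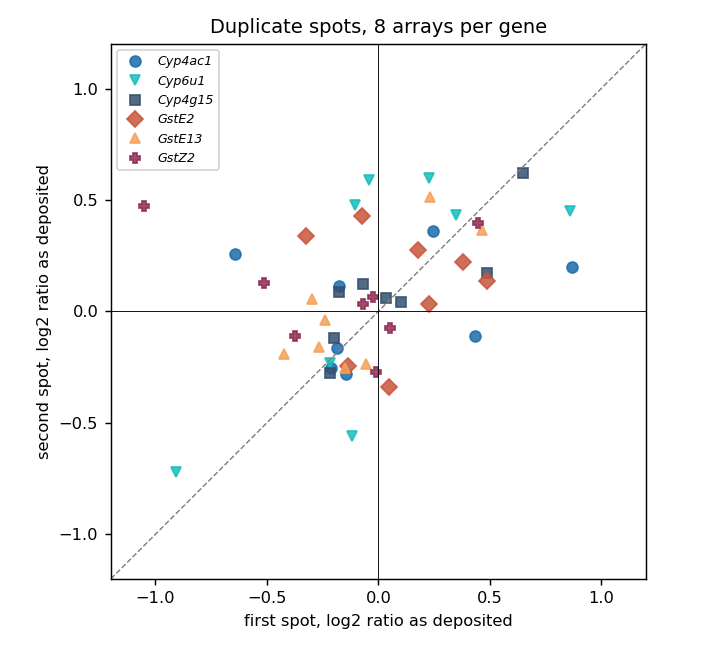
Log2 ratio of the first spot (horizontal axis) against the second spot (vertical axis) of each clone, with 1 point per array and 8 per gene; the dashed line marks equal values. The *GstZ2* point at -1.05 and 0.47 lies furthest from the line, and the *Cyp6u1* point at -0.91 and -0.72 lies near it.

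The first comparison asked whether a ratio stayed with the dye when the pools were exchanged. *Cyp6u1* passed the test, towards dye A, with a dye component (the mean of both arrays of a pair in dye orientation) of 0.37 ± 0.17 (log2, SD, n = 4 pairs), a 1.29-fold excess. In pairs 1 to 4 it stood at 0.38, 0.25, 0.23 and 0.60, above 0 in 4 of 4 pairs, with a limma adjusted p = 0.0389 over all clones and a 95% interval of 0.17 to 0.56. It was 1 of 6 members called, against 8.56% of all clones in either direction and 4.25% towards dye A. The count of 1 in 6 is near enough to that background to say nothing about the 6 genes as a set.

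The *Cyp6u1* call rested on the setting, while its size changed less. With reversed-label values turned in sign, the dye component lay between 0.28 and 0.45 in every alternative run. The limma adjusted p was 0.0856 after scaling the arrays, 0.0869 after quantile normalization, 0.137 and 0.12 for its single spots and 0.0847 when the 8 arrays were taken without the pair as a replicate block. It was 0.151, 0.108, 0.0692 and 0.0879 without pairs 1, 2, 3 and 4, so no pair could be left out. Single arrays were left out in a fit to 7 arrays without that block. Without the reversed-label array of pair 3 the value was 0.45 and the limma adjusted p = 0.0416, while without any other array it did not pass (adjusted p of 0.107 to 0.213). If reversed-label values were not turned in sign, the same 0.37 became a difference between even and odd pools.

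The other P450s also lay on the dye A side but did not pass. The dye component of *Cyp4g15* read 0.12, 0.29, 0.34 and -0.0092 in pairs 1 to 4, a mean of 0.18 ± 0.16 (SD, n = 4 pairs, limma adjusted p = 0.194). That of *Cyp4ac1* read 0.19, 0.020, 0.35 and -0.17, a mean of 0.099 ± 0.22 (SD, n = 4 pairs, limma adjusted p = 0.549). In both, pair 3 was highest and pair 4 fell below 0.

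None of the transferases passed either. *GstE2* stood at 0.0053 ± 0.17 (SD, n = 4 pairs, limma adjusted p = 0.976) and *GstE13* at -0.018 ± 0.22 (SD, n = 4 pairs, limma adjusted p = 0.923), and both changed sign between pairs. *GstZ2* was below 0 in 4 of 4 pairs, at -0.062, -0.11, -0.024 and -0.22, with a mean of -0.10 ± 0.083 (SD, n = 4 pairs, limma adjusted p = 0.372). The same sign in 4 of 4 pairs was seen in 34.5% of all clones. In the fit without the reversed-label array of pair 3, the dye components were 0.083 for *Cyp4ac1*, 0.19 for *Cyp4g15*, -0.0097 for *GstE2*, -0.049 for *GstE13* and -0.15 for *GstZ2*, and none passed (limma adjusted p of 0.248 to 0.963). In pair 4, 5 of 6 had a dye component below 0, and *Cyp6u1* its highest, 0.60. The share of all clones below 0 in that pair is not given, so the count does not single out the 6 genes.

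**Figure D3:**
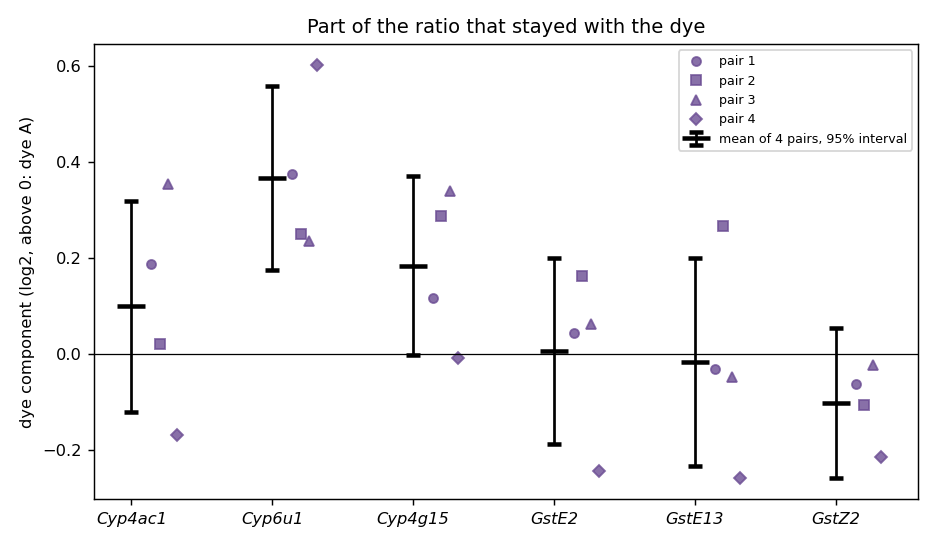
Dye component (vertical axis, log2, above 0 towards dye A) of the 6 clones, with small symbols for the 4 pairs and a black bar for the mean with its 95% interval from limma. The *Cyp6u1* interval is the one that does not include 0.

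The median dye component of the 6 was 0.052, against 0.0044 over all clones, of which 51.0% were above 0. In size, *Cyp6u1* was further from 0 than 93.1% of all clones, *Cyp4g15* than 70.5%, *GstZ2* than 45.3%, *Cyp4ac1* than 44.0%, *GstE13* than 8.48% and *GstE2* than 2.58%. The 6 genes were thus spread over the sizes seen on the array.

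**Figure D4:**
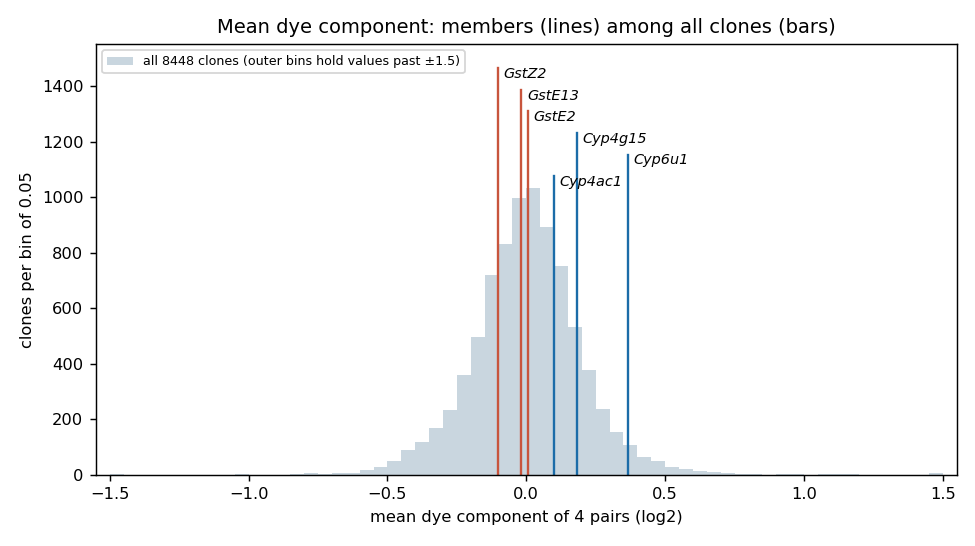
Number of clones (vertical axis) by mean dye component over 4 pairs (horizontal axis, log2, bins of 0.05) for all 8448 clones, with lines for the 3 P450 clones (blue) and the 3 transferase clones (red). *Cyp6u1* at 0.37 lies in the right-hand slope, and the other 5 lie between -0.10 and 0.18.

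Other clones moved with the dye as well. On a list of heat shock, heat shock cognate and co-chaperone genes, 6 of 14 clones were called towards dye A, as *Cyp6u1* was. The share over all clones was 4.25%. The list median was 0.18 and the range -0.12 to 1.63. These clones are of 4 genes and are not independent: 2 of 3 *Hsc70-1*, 2 of 2 *Hsc70-2*, 1 of 1 *Hsp68* and 1 of 8 *DnaJ-1* clones were called. In pair 3, 2 of the 14 also passed for the pool difference, against 3.2% of all clones. They were 1 *Hsc70-1* clone (1.81, limma adjusted p = 0.00951) and 1 *Hsc70-2* clone (2.53, limma adjusted p = 0.0233). On the list of nervous system genes, 2 of 4 clones, of 3 genes, were called towards dye B, against 4.31% of all clones, with a median of -0.31. No clone was called on the lists for fat body (2 clones), gut (1), Malpighian tubule (1) or egg chamber (2). The lists were chosen with earlier results of these data known, so their shares are descriptions only. The part of these clones in the *Cyp6u1* result was not tested.

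Clones of related function were read from lists. The remaining P450 with a clone of a single symbol, *Cyp12d1-p*, of the mitochondrial CYP12 family and with a near-identical copy in the genome that the clone may not tell apart, had a dye component of 0.30 ± 0.18 (SD, n = 4 pairs, limma adjusted p = 0.0692), and *Cyt-b5-r*, annotated by name as a cytochrome b5-related gene, had 0.24 ± 0.20 (limma adjusted p = 0.141). Both were above 0 in 4 of 4 pairs, and neither passed, so 0 of 2 further clones of the P450 list were called. Of all clones, 34.5% had the same sign in 4 of 4 pairs and 8.56% were called, so these counts say nothing about P450s as a set. *Cyp12d1-p* read 0.71, 0.053, 0.61 and 0.15 on the normal-label arrays of pairs 1 to 4 and 0.084, -0.90, -0.13 and 0.038 on the reversed-label arrays, overlapping between labels.

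Among 3 further clones of glutathione and thiol metabolism, 0 passed. *Gclm*, the modifier subunit of the enzyme that makes the glutathione precursor, had 0.23 ± 0.10 (SD, n = 4 pairs, limma adjusted p = 0.0822). *Prx3*, a mitochondrial peroxiredoxin, had -0.15 ± 0.067 (limma adjusted p = 0.188) and the thioredoxin *TrxT* 0.038 ± 0.026 (limma adjusted p = 0.743). Of 7 UDP-glycosyltransferase clones, enzymes that attach sugars to foreign compounds, 1 passed: *Ugt35D1*, towards dye B, at -0.38 ± 0.11 (SD, n = 4 pairs, limma adjusted p = 0.0261). Over all clones 8.56% were called in either direction, so 1 in 7 says nothing about the family. The dye components of the 7 ranged from -0.38 to 0.32. *Keap1*, the inhibitor of the transcription factor that switches on many detoxification genes, had -0.069 ± 0.14 (limma adjusted p = 0.602). The list for tyrosine breakdown had no named clone other than *GstZ2* itself. The medians were 0.27 for the 2 P450-list clones, 0.038 for the 3 of glutathione metabolism and -0.059 for the 7 glycosyltransferases, against 0.0044 over all clones.

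The second comparison was a null one, since odd and even pool numbers carry no treatment. In the chosen dye orientation, no difference between odd and even pools passed the test over the 4 pairs. By limma, 0 of 6 members (adjusted p of 0.834 to 0.972) and 0% of all clones were called. At an unadjusted p under 0.05 there were 0 members and 451 clones (5.34%). The largest mean belonged to *GstE2*, at 0.10 ± 0.11 (log2, SD, n = 4 pairs), above 0 in 4 of 4 pairs, with a limma adjusted p = 0.834. The same sign in 4 of 4 pairs was seen in 14.5% of all clones. Without the reversed-label array of pair 3 the even-odd values ranged from -0.013 (*Cyp6u1*) to 0.12 (*GstE2*), and none passed. The orientation was chosen from these same data, so the null result depends on it. Under the other reading the even-odd test called 723 clones and 1 member, *Cyp6u1* (0.37, limma adjusted p = 0.0389).

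Only in the chosen dye orientation do the intervals set what the arrays could have missed. The 95% intervals of the mean difference between numerator and other pools all included 0, and their bounds lay between 0.818-fold (*GstZ2*) and 1.26-fold (*Cyp6u1*). For *Cyp4ac1* they ran from -0.21 to 0.24 log2 units, for *Cyp4g15* from -0.13 to 0.30, for *GstE13* from -0.28 to 0.19 and for *GstE2* from -0.10 to 0.30.

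The third comparison asked whether the 2 pools of a single pair differed by more than expected from the spread of the dye component between pairs. No pair was repeated in the same dye orientation, so a pair had no error of its own. By limma's F-test, 0 of 6 members passed, as did 0% of all clones. The smallest adjusted p among the members was 0.50, for *Cyp6u1*. At an unadjusted p under 0.05 there were 0 members and 1262 clones (14.9%).

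In pairs 1, 2 and 4, 0 of 6 members and 0% of all clones passed on their own. At an unadjusted p under 0.05 no member was found there, against 549, 625 and 453 clones. In pair 3, 0 of 6 members passed, against 3.2% of all clones. *Cyp6u1* had the largest pool difference of the 6 there, 0.42 (SE 0.16, a 1.34-fold difference, limma adjusted p = 0.173), with a 95% interval of 0.037 to 0.80. It was the only one of 24 intervals without 0, and all 24 point values were under 2-fold. The fit gave every pair the same error, so the intervals of pair 3, with the most scattered array, may be too narrow. At an unadjusted p under 0.05 pair 3 held 1 member, *Cyp6u1*, and 2012 clones (23.8%), so an interval without 0 was common in that pair. Without the reversed-label array of pair 3 the *Cyp6u1* difference was 0.25 and its interval, -0.34 to 0.83, included 0 (limma adjusted p = 0.612). In that fit pair 3 was a single array, the most scattered one, and was assumed to vary like the arrays of the other pairs. The furthest from 0 in pair 3 were then *Cyp4ac1*, at 0.52 (limma adjusted p = 0.282), and *Cyp4g15*, at 0.50 (limma adjusted p = 0.271), and neither passed.

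With all 8 arrays, pair 3 also held the widest differences of *Cyp4g15* (0.29, limma adjusted p = 0.311), *GstE13* (-0.26, limma adjusted p = 0.437) and *GstZ2* (-0.27, limma adjusted p = 0.276). Without the reversed-label array the pair 3 difference was -0.30 for *GstE13*, 0.15 for *GstE2* and -0.16 for *GstZ2*, the last smaller than the 0.21 of *GstZ2* in pair 4 with all arrays. The median size of the 6 differences in pair 3 was 0.26, against 0.21 for all clones. In pairs 1, 2 and 4 it was 0.062, 0.064 and 0.12, against 0.12 for all clones in each. *GstE2* differed most in pair 1 (0.27, limma adjusted p = 0.861) and *Cyp4ac1* in pair 2 (-0.21, limma adjusted p = 0.912).

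**Figure D5:**
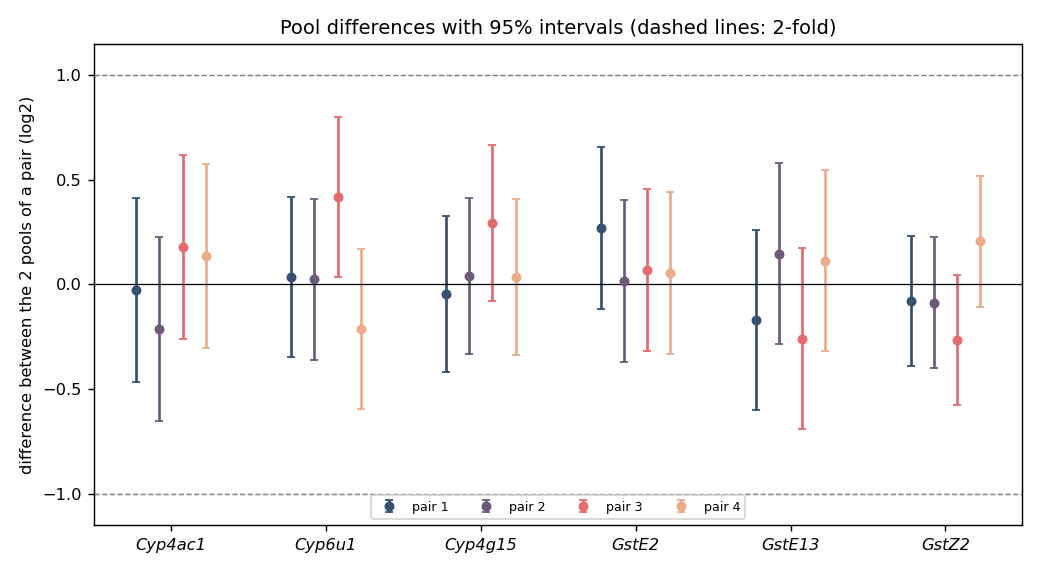
Difference between the 2 pools of each pair (vertical axis, log2, numerator pool over the other) for the 6 clones, with 95% intervals from limma and dashed lines at 2-fold. All but the pair 3 interval of *Cyp6u1* include 0, and none reaches a dashed line. All arrays were used and were assumed to vary alike. The intervals of pair 3, which holds the most scattered array, may therefore be too narrow.

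A single pair bounded a difference less well than the mean of 4. In the fit with all arrays, the 95% intervals reached 0.31 to 0.44 log2 units to each side of the value. Their furthest bound was a 1.74-fold difference (*Cyp6u1*, pair 3). Without the reversed-label array of pair 3, the intervals of that pair were wider. They passed 2-fold for *Cyp4ac1* (upper bound 1.11 log2 units), *Cyp4g15* (upper bound 1.06) and *GstE13* (lower bound -1.01). A 2-fold pool difference in pair 3 was thus not excluded for these genes. The technical SD of an array, in the fit with a common dye term, came from the spread of the dye component between pairs. It was lowest for *GstZ2* (0.12) and highest for *Cyp4ac1* (0.32), with a median of 0.24 against 0.22 over all clones. The low value for *GstZ2* is over averaged spots, which themselves disagreed on this clone.

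Between the members, ratios over the 8 arrays (signs as deposited) correlated from 0.69 for *Cyp4ac1* with *Cyp4g15* to -0.87 for *Cyp6u1* with *GstZ2*. *Cyp6u1* with *Cyp4g15* gave 0.59 and *GstE13* with *GstZ2* 0.53. These are descriptions over 8 arrays that share dyes and pools, and the reversed-label array of pair 4, lowest for *Cyp6u1* and highest for *GstZ2*, enters each of them.

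Among 2832 other clones with a single symbol, those whose ratios followed each member most closely over the 8 arrays were *eIF2A* for *Cyp6u1* (r = 0.99), *Obp99c* for *Cyp4g15* (r = 0.98), *Exo84* for *Cyp4ac1* (r = 0.95), *tkv* for *GstE13* (r = 0.95, same sign on 3 of 8 arrays), *CG12384* for *GstZ2* (r = 0.93) and *CG11893* for *GstE2* (r = 0.90). Each is the highest of 2832 coefficients over 8 arrays. The *eIF2A* and *Obp99c* clones passed the dye test themselves, at 0.30 (limma adjusted p = 0.0418) and 0.60 (limma adjusted p = 0.0469).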

How the data were processed

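Per the labels, 80 µg of total RNA was used in each direct labelling. The deposited values were log2 ratios for 16896 spots on each of 8 arrays, with array medians near 0; the log base was inferred from the values. Background correction, normalization and numerator were not stated there. Each array's median was subtracted and spots 2k-1 and 2k were averaged to 8448 clones; their annotation was identical for all 2909 annotated clones. Symbols came from GEO's platform annotation (1 symbol for 2833 clones, several for 76, none listed for 5539), updated through Entrez identifiers in the RefSeq table, which held all 2833. No coordinates are given, since the files name no genome build, and sequences were not used here.

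The lmFit and eBayes functions of limma 3.58.1 (R 4.3.3) were used; p-values were adjusted over 8448 clones by the Benjamini-Hochberg method and called at 5%. A pair's dye component averages its arrays in dye orientation and its even-odd component is their difference divided by 2, each tested against 0 over 4 pairs. Pool differences came from a fit to 8 arrays with 4 pair coefficients and a common dye term (3 residual degrees of freedom). Its error is the spread of the dye component between pairs, taken as technical and as equal on all arrays. The pair was the replicate because, per the labels, both of its arrays carry the same pools; residuals of the 2 arrays of a pair correlated at -0.34, -0.30, -0.53 and -0.11 in pairs 1 to 4. The tests were checked on simulated data with independent noise of the same spread on all arrays. Unequal spread between arrays and correlation within pairs were not simulated, so the check does not cover them. Alternatives were no centring, scaling, quantile normalization, single spots, the other reading of the direction, robust eBayes, 8 arrays with and without a replicate block, a 1% threshold, leaving out pairs, and leaving out single arrays (fits to 7 arrays with no block). Turning the reversed-label array of pair 3 in sign was added after the data were seen.

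All member clones are named. Of other genes, the rule named clones past 5% on 5 lists of related genes and the closest pattern for each member. Further clones named came from lists of 3 or fewer or from the heat shock and cognate list, and were picked with their values known. Clones of the nervous system list were not named. The members and lists were chosen with earlier results of these data known. The number of arrays limits the precision.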

Additional observations from a re-analysis of the deposited data

Results flagged for a closer look

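In each group of 4 values of a clone (by label, by dye component and by pool difference), a value was looked at again when its gap to the nearest of the other 3, as a share of the range, exceeded Dixon's 95% critical value. Of 24 groups, 2 held such a value, and chance gives about 1 in 20. Both lay on the reversed-label array of pair 4, with signs as deposited. *Cyp4ac1* stood at 0.30 there, against -0.23 to -0.17 on the other reversed-label arrays. *GstE13* stood at 0.37, against -0.21 to -0.12. The spots of that array read 0.25 and 0.36 for *Cyp4ac1* and 0.23 and 0.51 for *GstE13*, so both spots of each clone were above 0. The array had 1.21% of all clones past 2-fold, within the range of the other arrays. The cause was not tested.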

How the results depend on the processing

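The dye count of 1 member, *Cyp6u1*, was kept with no centring, robust eBayes, the pair as a replicate block over 8 arrays (adjusted p = 0.0344) and a turned sign for the doubtful array (pair 3, reversed label). It fell to 0 with scaled arrays, quantile normalization, single spots, 8 arrays without a block and a 1% threshold, and lay between 0 and 1 with each pair or array left out. Leaving out an array also drops the block, so those values compare with the fit to 8 arrays without a block (adjusted p = 0.0847). With the direction read the other way it was 0, the even-odd count 1 and the even-odd count of all clones 723. Of 21 alternative values of the *Cyp6u1* dye component, 21 were above 0 and 4 passed 5%. The count of all clones called for dye was 723 and fell to 286 with scaling, 258 with quantile normalization, 72 with single spots, 76 without a block, 3 at 1%, 481 with the turned sign and 0 under the other reading, and was 0 to 359 with a pair or array left out. The 270 calls of pair 3 fell to 0 with scaling, quantile normalization, single spots, the other reading and the turned sign, to 3 at 1%, and to 2 to 157 with an array or another pair left out. The F-test calls of all clones, 0 in the reported fit, lay between 0 and 12 there. The counts of member calls in the even-odd (other than above), F and single-pair tests stayed at 0 in all alternatives run. Values past 2-fold numbered 1 of 48 when either spot was counted. Of 252 alternative member means, 32 changed sign, none of them past 5%; *GstE2* and *GstE13* did so in 10 and 7 of 21 dye values. The causes were not tested. Unknown scanner intensity means that signal over background could not be judged.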
